A study of Bos indicus with 55 samples.

Results

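The miR-29 family was followed in extracellular vesicles, the small membrane particles that cells release, from bovine conceptuses (the embryo with its developing membranes) on day 16. Its members were taken by name from the vesicle count table: bta-miR-29a, bta-miR-29b and bta-miR-29c, 3 of 1024 entries. Of the 1024 entries, 655 had a count in at least 1 library and 240 passed the filter on low counts. Both miR-29a and miR-29b passed it, and miR-29c did not. The 28 vesicle libraries fell into 12 from nuclear transfer conceptuses (7 male, 5 female), 10 from in vitro fertilised (IVF) conceptuses (3 male, 7 female) and 6 from in vivo conceptuses (3 male, 3 female). In nuclear transfer an egg's own nucleus is replaced by that of another cell, and the in vivo conceptuses followed artificial insemination. All conceptuses shared the 6 h of culture in which the vesicles were released. What cells the transferred nuclei came from is not given in the labels, nor whether they were of 1 clone. Every sample is labelled Bos indicus, whereas the submitters' design text has conceptuses of Bos taurus taurus carried in Bos taurus indicus cows.

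MicroRNAs are short RNAs that pair with messenger RNAs, mainly through a seed near their 5′ end, and lower the output of those messages. The miR-29 members share 1 seed. In human and mouse they lower the messages of collagens, elastin and other matrix proteins and of the de novo DNA methyltransferases DNMT3A and DNMT3B, and their levels rise as many cell types mature. Mature miR-29b is encoded at more than 1 locus in mammals: in human and mouse one copy lies beside miR-29a and the other beside miR-29c. Human miR-29b also carries a terminal signal that sends it to the nucleus.

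Library totals ran from 39263 to 603579 counts with a median of 120728. Levels are given as CPM, each library's counts scaled to a common total after TMM normalisation, a relative measure, so vesicles from fewer cells of a kind and less of a miRNA per vesicle cannot be told apart. The entries miR-2887 and miR-2904 together took 5.17 to 59.4% of the counts in nuclear transfer libraries, 8.80 to 76.3% in IVF libraries and 4.11 to 37.1% in in vivo libraries. For miRNAs of epithelium, the tissue of the outer conceptus layer, miR-200a, miR-200b, miR-200c, miR-141, miR-429 and miR-205 were summed. The sum was at least 6840 CPM in every nuclear transfer library, 5862 CPM in every IVF library and 8324 CPM in every in vivo library. No other tissue was set beside it, so it cannot tell conceptus vesicles from those of other epithelium. No 2 libraries agreed within sampling noise.

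miR-29a was the abundant member. It had 4263 counts and was present in 28 of 28 libraries, with a mean of 1047 CPM and rank 66 among the 655 entries. miR-29b had 390 counts in 24 of 28 libraries, a mean of 109 CPM and rank 168. miR-29c had 53 counts in 17 of 28 libraries, no more than 9 in any of them, and rank 297. The SD of their levels also differed between the members, though it was not corrected for counting error. The SD of log2 CPM over the 28 libraries was 0.64 for miR-29a, against a median of 1.17 over the tested entries, and 4.58% of the tested entries had a smaller SD. For miR-29b it was 1.37, with 70.8% of the tested entries below it.

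**Figure D1:**
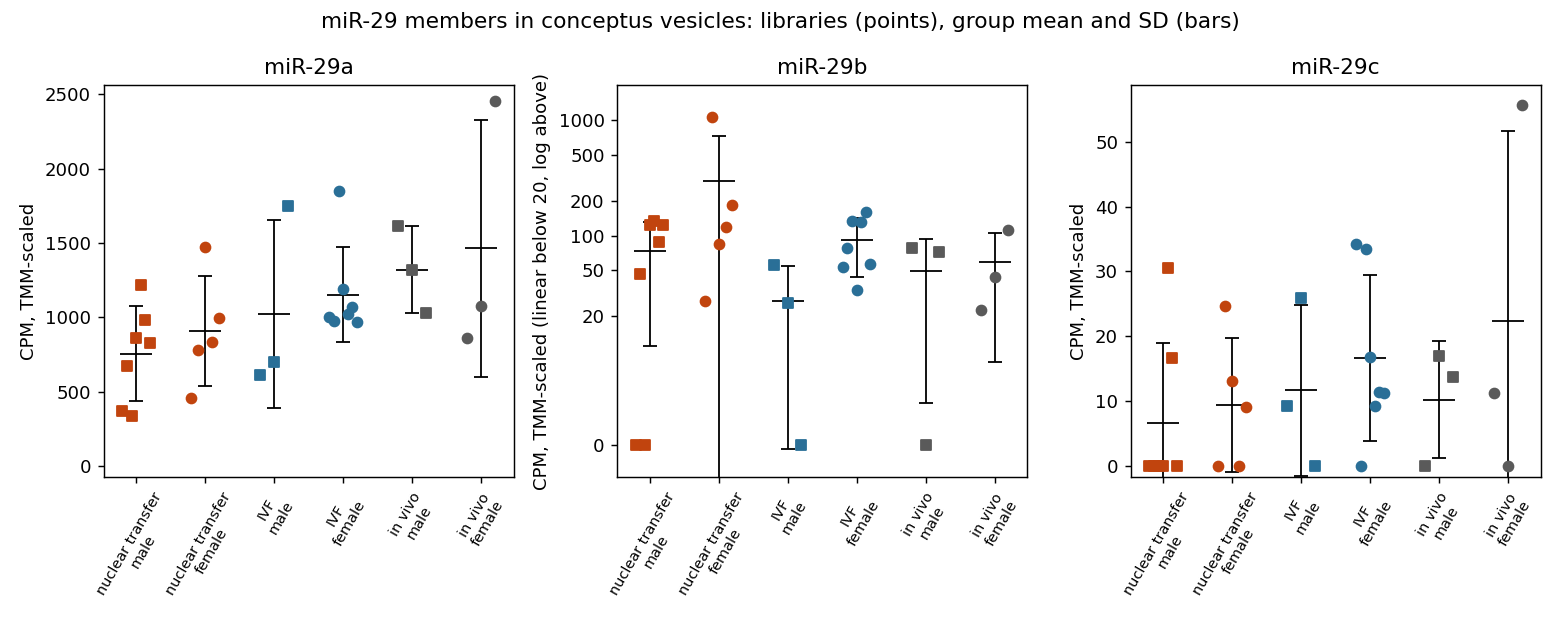
Level of miR-29a, miR-29b and miR-29c in CPM (y axes) in each conceptus type and sex (x axis); points are libraries, the black line is the group mean and the bar its SD, and the miR-29b axis is linear below 20 CPM and logarithmic above, with bars cut where they pass below 0. miR-29a groups overlap, and a single nuclear transfer female library stands at 1063 CPM of miR-29b.

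Within the family, miR-29a carried most of the counts. It averaged 87.3 ± 15.2% of the 3 members' counts in nuclear transfer libraries (SD, n = 12), 92.3 ± 3.87% in IVF libraries (SD, n = 10) and 95.4 ± 2.22% in in vivo libraries (SD, n = 6). miR-29b made up 57.0% of the family in nuclear transfer female replicate 2, with a 95% Wilson interval of 49.0 to 64.6% for counting error. There it had 86 counts, against 63 for miR-29a, and as deposited this was the single library with more miR-29b than miR-29a. In the 27 other libraries miR-29b made up 0 to 15.4%. The direction depends on how miR-29b was counted. Nearly all of its counts were even, and with them halved that library had 43 counts of miR-29b, below the 63 of miR-29a. Its share was then 39.8% (95% Wilson interval 31.1 to 49.2%), and the 27 others had 0 to 8.33%.

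**Figure D2:**
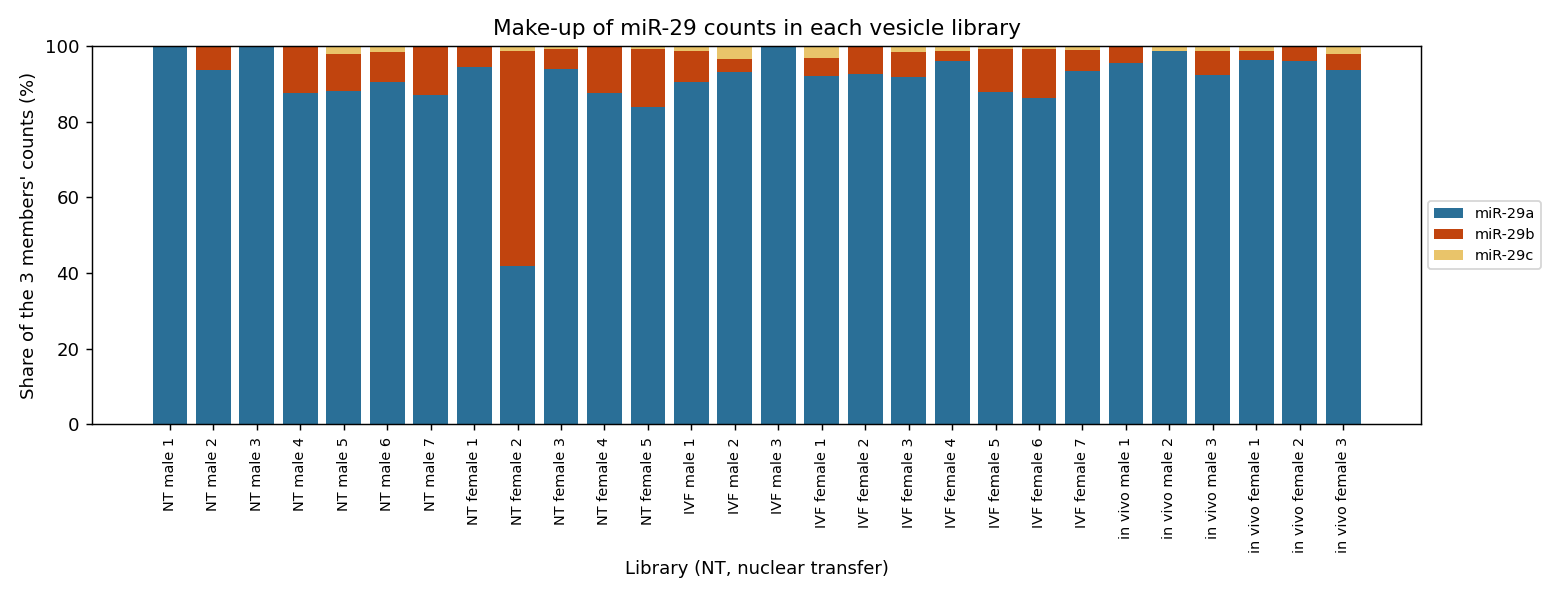
Share of the 3 members' counts (y axis, %) taken by miR-29a, miR-29b and miR-29c in each of the 28 libraries (x axis). In the counts as deposited, nuclear transfer female replicate 2 is at 57.0% miR-29b and the 27 others at 0 to 15.4%.

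miR-29a was lowest on average in vesicles of nuclear transfer conceptuses and highest in those of in vivo conceptuses, and the difference did not pass the test. Nuclear transfer libraries ran from 337 to 1476 CPM with a median of 834 CPM, IVF libraries from 612 to 1851 CPM with a median of 1011 CPM, and in vivo libraries from 861 to 2457 CPM with a median of 1197 CPM. The means were 819 ± 335 CPM in nuclear transfer (SD, n = 12), 1114 ± 399.9 CPM in IVF (SD, n = 10) and 1393 ± 583 CPM in in vivo libraries (SD, n = 6). All 3 ranges overlapped, and neighbouring means differed by less than the larger SD. Nuclear transfer males 1 and 3 were the lowest of all libraries at 374 and 337 CPM, and in vivo female replicate 3 was the highest at 2457 CPM.

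In edgeR's quasi-likelihood test the log2 difference of miR-29a was -0.74 for nuclear transfer minus in vivo (SE 0.34, 95% interval -1.44 to -0.04, unadjusted p = 0.0384, adjusted p = 0.392). The median over all 240 tested entries was 0.15. Neither of the 2 tested members was called at an adjusted p under 0.05, beside 0.417% of the 240 entries; at an unadjusted p under 0.05 it was 1 of 2, beside 11.2% of the entries. Without in vivo female replicate 3 the miR-29a difference was -0.48 (unadjusted p = 0.225, adjusted p = 0.844), and the in vivo mean was 1180 ± 292 CPM (SD, n = 5). It was larger without in vivo female replicate 1, at -1.07 (unadjusted p = 0.0109, adjusted p = 0.116), and without nuclear transfer female replicate 3, at -1.06 (adjusted p = 0.200). With library totals in place of TMM it was -1.20 (adjusted p = 0.192), where the median of all entries moved by -0.34. With the miR-2887 and miR-2904 share as a covariate it was -0.62 (adjusted p = 0.486), and without libraries under 50000 counts it was -0.45 (adjusted p = 0.822). Over 38 settings the difference was below 0 in all, the unadjusted p was under 0.05 in 26 and the adjusted p in 0. The settings share most libraries, and 28 of them leave out 1 library, so they are not separate checks. Leaving out an IVF library, which is in neither group, moved the difference too. It was -0.94 without IVF female replicate 5 (unadjusted p = 0.0179 by edgeR) and -0.63 without IVF female replicate 4 (unadjusted p = 0.117 by edgeR).

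For IVF minus in vivo, miR-29a differed by -0.36 (SE 0.37, 95% interval -1.12 to 0.40, adjusted p = 0.672 by edgeR). It was -0.76 without IVF male replicate 3, which stood at 1750 CPM, and -0.05 without in vivo female replicate 3. In that contrast 0 of 2 members were called by edgeR, beside 0% of the 240 entries, where 16.2% had an unadjusted p under 0.05; over all entries DESeq2 called 13 and limma voom 22, with neither member among them. For nuclear transfer minus IVF, miR-29a differed by -0.39 (SE 0.31, 95% interval -1.03 to 0.26, adjusted p = 0.684 by edgeR), and by -0.09 without IVF male replicate 3. Of the 2 members 0 were called there, beside 1.25% of the entries.

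miR-29b, in contrast, averaged highest in nuclear transfer vesicles. The difference did not pass the test, and 1 library held much of it. Nuclear transfer libraries ran from 0 to 1063 CPM with a median of 103 CPM, IVF libraries from 0 to 159 CPM with a median of 56.2 CPM, and in vivo libraries from 0 to 111 CPM with a median of 57.7 CPM. The means were 166 ± 288 CPM in nuclear transfer (SD, n = 12), 72.8 ± 52.3 CPM in IVF (SD, n = 10) and 54.4 ± 40.3 CPM in in vivo libraries (SD, n = 6). The ranges overlapped, and each type had libraries at 0. Nuclear transfer female replicate 2 was at 1063 CPM and the next library of any type at 182 CPM. Without it the nuclear transfer mean was 84.2 ± 59.3 CPM (SD, n = 11).

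The log2 difference of miR-29b was 1.41 for nuclear transfer minus in vivo (SE 0.80, 95% interval -0.24 to 3.06, adjusted p = 0.417 by edgeR). Without nuclear transfer female replicate 2 it was 0.50 (adjusted p = 0.701). For nuclear transfer minus IVF it was 1.51 (SE 0.74, 95% interval -0.01 to 3.02, adjusted p = 0.428 by edgeR), and 0.80 without that library (adjusted p = 0.692). IVF minus in vivo was -0.10 (SE 0.81, 95% interval -1.77 to 1.57, adjusted p = 0.979 by edgeR), so a difference of either sign is inside the interval.

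**Figure D3:**
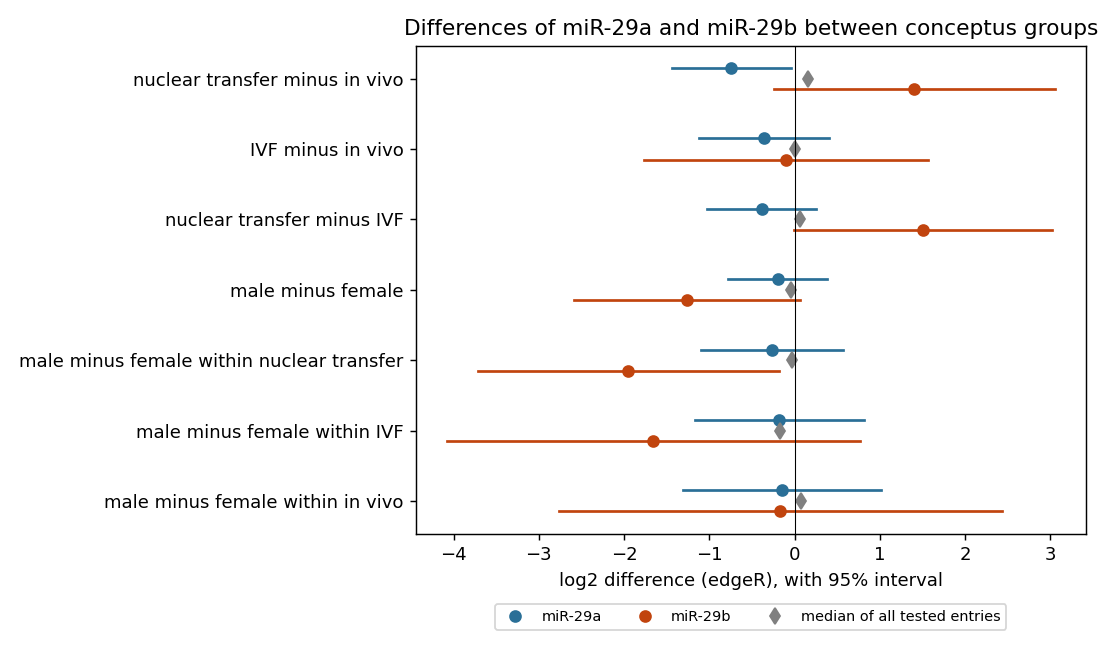
Log2 differences of miR-29a and miR-29b between conceptus groups (x axis), 1 row per comparison; points are edgeR estimates, lines their 95% intervals and diamonds the median of the 240 tested entries. For nuclear transfer minus in vivo, miR-29a sits at -0.74 and miR-29b at 1.41, and no adjusted p passed 0.05.

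miR-29c was too sparse for the filtered test. It averaged 7.85 ± 11.04 CPM in nuclear transfer libraries (SD, n = 12), 15.2 ± 12.4 CPM in IVF libraries (SD, n = 10) and 16.3 ± 20.5 CPM in in vivo libraries (SD, n = 6). Pooled over libraries this was 19 counts in nuclear transfer, or 0.980 per 100k counts with an exact Poisson interval of 0.590 to 1.53. It was 22 counts in IVF, or 1.63 per 100k with an interval of 1.02 to 2.47, and 12 in in vivo vesicles, or 1.62 per 100k with an interval of 0.839 to 2.84. These intervals overlap and cover counting error only. miR-29c was present in 5 of 12 nuclear transfer, 8 of 10 IVF and 4 of 6 in vivo libraries. With the filter off, edgeR gave -0.58 for nuclear transfer minus in vivo (SE 0.96, 95% interval -2.49 to 1.32), and no difference was detectable at this depth.

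By conceptus sex, miR-29b was at 0 in 4 libraries and all 4 were male: nuclear transfer males 1 and 3, IVF male replicate 3 and in vivo male replicate 2. At the depth of those libraries 0 counts allow levels of up to 20.6, 25.02, 72.5 and 76.4 CPM of the plain totals (3 counts each). It was counted in 9 of 13 male libraries and in 15 of 15 female libraries. In vivo female replicate 1, nuclear transfer female replicate 1 and IVF female replicate 4 had only 2 counts each, under that limit of 3. Presence thus does not part the sexes clearly at this depth. The average was 57.3 ± 50.2 CPM in male libraries (SD, n = 13) and 153 ± 256 CPM in female libraries (SD, n = 15). The male libraries ran from 0 to 133 CPM and the female ones from 22.7 to 1063 CPM, with medians of 55.7 CPM in males and 84.4 CPM in females.

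Within nuclear transfer, miR-29b in the 7 males ran from 0 to 133 CPM with a median of 88.6 CPM, and the 5 females had 26.997, 1063, 84.4, 118 and 182 CPM. Within IVF the 3 males had 55.7, 25.96 and 0 CPM, and the 7 females ran from 33.6 to 159 CPM with a median of 78.5 CPM. Within in vivo the 3 males had 77.4, 0 and 71.8 CPM, and the 3 females had 22.7, 43.6 and 111 CPM. The sexes overlapped in every type.

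The mean log2 difference of miR-29b over the types, male minus female, was -1.26 (SE 0.65, 95% interval -2.58 to 0.07, adjusted p = 0.694 by edgeR). Of the 2 members 0 were called, beside 0% of the 240 entries by edgeR, DESeq2 and limma voom alike, with 3.75% at an unadjusted p under 0.05. Without nuclear transfer female replicate 2 the difference was -0.69 (adjusted p = 0.820). Within nuclear transfer it was -1.95 (SE 0.86, 95% interval -3.71 to -0.19, adjusted p = 0.123 by edgeR), and -0.25 without that library (adjusted p = 0.871). There 0 of 2 members were called, beside 8.33% of the entries. The unadjusted p by edgeR was 0.0314 for miR-29b and 0.515 for miR-29a, and 31.7% of the entries were under 0.05. Within IVF it was -1.65 (SE 1.18, adjusted p = 1.00 by edgeR) and within in vivo -0.17 (SE 1.27, adjusted p = 0.995 by edgeR). Over all entries 0% were called in either, with 1.25% within IVF and 2.92% within in vivo at an unadjusted p under 0.05. Whether the type differences depend on sex was tested by the interaction, with an adjusted p of 0.832 for miR-29b by edgeR, where 0% of entries were called and 14.6% had an unadjusted p under 0.05.

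miR-29a differed less between the sexes. It averaged 947 ± 436 CPM in male libraries (SD, n = 13) and 1134 ± 481 CPM in female libraries (SD, n = 15). The nuclear transfer males had 337 to 1219 CPM with a median of 830 CPM, and the nuclear transfer females had 459, 779, 1476, 838 and 993 CPM. The IVF males had 612, 701 and 1750 CPM, and the IVF females 969 to 1851 CPM with a median of 1020 CPM. The in vivo males had 1613, 1319 and 1032 CPM, and the in vivo females 861, 1074 and 2457 CPM. The log2 difference, male minus female, was -0.20 (SE 0.28, 95% interval -0.78 to 0.38, adjusted p = 0.828 by edgeR), and it was 0.06 without in vivo female replicate 3. The 3 within-type differences lay between -0.27 and -0.15.

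The counts of miR-29b had a property that those of miR-29a lacked. Of the 24 libraries with a miR-29b count, 22 held an even number (91.7%), and the other 2 held 45 and 17. For miR-29a 17 of 28 counts were even (60.7%). Among the 344 entries with at least 10 non-zero libraries the median share of even counts was 50%, and 12 entries other than miR-29b reached its share or more. Among the 70 others with 200 to 800 counts in all, 3 did. The 12, named after their values were seen, were miR-1248, miR-3604, miR-19b, miR-1, miR-124a, miR-199a-5p, miR-199a-3p, miR-365-3p, miR-4286, miR-9-3p, miR-9 and miR-135a. How the even counts arose was not tested, and no source used here gives the counting rule for reads that match several loci. If reads were counted more than once, the counting intervals for miR-29b are too narrow. Halving the miR-29b counts, an alternative chosen after seeing the data, changed no call of a member, while it put miR-29b below miR-29a in every library.

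**Figure D4:**
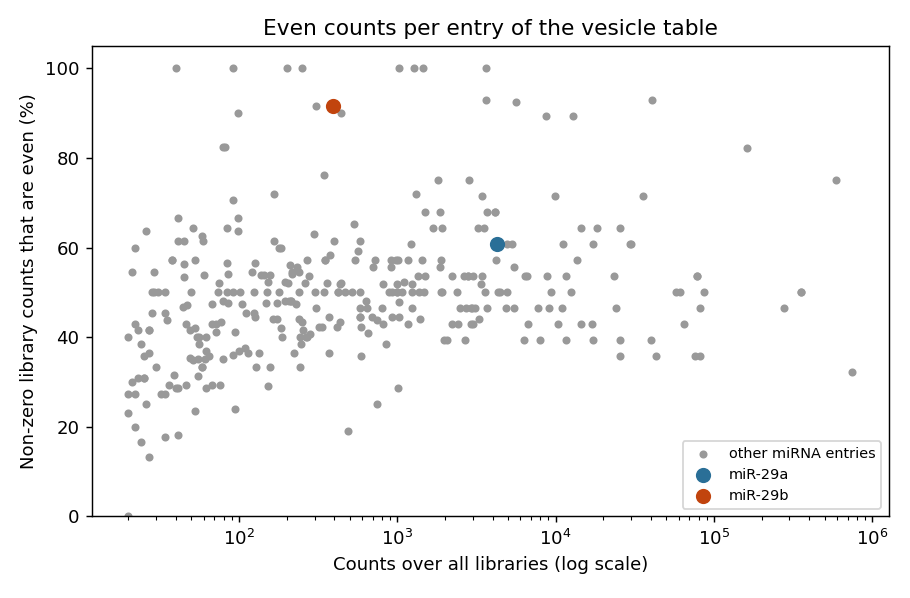
Share of non-zero library counts that are even (y axis, %) against the total count of an entry (x axis, log scale), 1 point per entry of the vesicle table with at least 10 non-zero libraries. miR-29b lies at 91.7% and miR-29a at 60.7%, and the median entry at 50%.

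The members' levels were compared across the 28 libraries in 3 pairs with 2-sided permutation tests on log2 CPM. For miR-29a with miR-29b Pearson's r was 0.27 (permutation p = 0.159, adjusted p = 0.159) and Spearman's rho 0.24 (permutation p = 0.224, adjusted p = 0.224). Without the 2 libraries farthest from the median of miR-29a, nuclear transfer males 3 and 1, r was -0.05. Within nuclear transfer r was 0.68 (unadjusted permutation p = 0.0152) and rho 0.58 (unadjusted permutation p = 0.0504). Nuclear transfer males 1 and 3, lowest in miR-29a and at 0 of miR-29b, are among those libraries. Within IVF r was -0.10 and within in vivo 0.45. The library with the most miR-29b, at 1063 CPM, had 779 CPM of miR-29a, near the nuclear transfer median.

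For miR-29a with miR-29c r was 0.47 (permutation p = 0.0111, adjusted p = 0.0333) and rho 0.43 (permutation p = 0.0237, adjusted p = 0.0711). Without the same 2 nuclear transfer males r was 0.39, and its permutation p of 0.0516 was above 0.05 before adjustment. By rho the pair did not pass with all 28 libraries either. Within nuclear transfer r was 0.62, within IVF -0.03 and within in vivo 0.55. For miR-29b with miR-29c r was 0.32 (permutation p = 0.100, adjusted p = 0.150) and rho 0.24 (permutation p = 0.215, adjusted p = 0.224), and r was 0.19 without the 2 farthest libraries. It was 0.60 within nuclear transfer, 0.28 within IVF and 0.12 within in vivo. miR-29c had at most 9 counts a library, so its values are mostly steps of single counts.

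**Figure D5:**
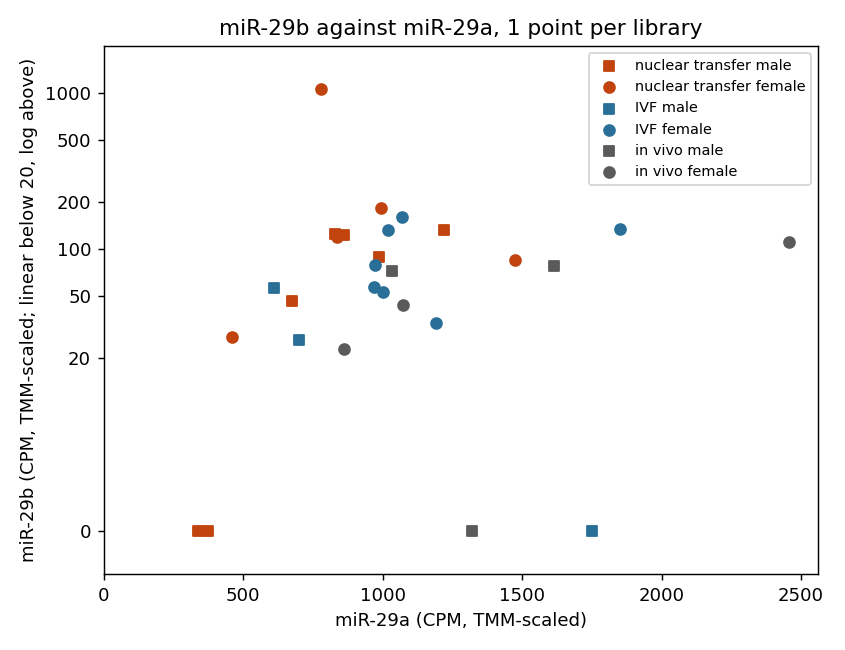
miR-29b (y axis, CPM, linear below 20 and logarithmic above) against miR-29a (x axis, CPM) in the 28 libraries, by type (colour) and sex (marker). The 4 libraries at 0 of miR-29b are all male, and nuclear transfer female replicate 2 is at 1063 CPM of miR-29b and 779 CPM of miR-29a.

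Each member's nearest neighbours were the 3 entries with the highest r across the 28 libraries, out of 230 candidates. The other members were not among the candidates. No test is given, since all entries share the same libraries and scaling. For miR-29a these were miR-139 (r = 0.70), miR-27b (r = 0.63) and miR-125b (r = 0.63). For miR-29b they were miR-374a (r = 0.54), miR-2285o (r = 0.52) and miR-449a (r = 0.52). For miR-29c they were miR-10174-3p (r = 0.50), miR-96 (r = 0.44) and miR-1839 (r = 0.40), on sparse counts. miR-29a, not a candidate, had an r of 0.47 with miR-29c. No entry was on more than 1 of these lists of 3, though miR-1839 was also at rank 5 for miR-29a (r = 0.57). By deviations from group means miR-1839 was at rank 1 for miR-29a (r = 0.64).

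A few further entries of the table carry a miR-29 name and are not members. bta-miR-29d-5p had 166 counts in 26 libraries and was tested: it differed by 1.31 for nuclear transfer minus in vivo (SE 0.56, adjusted p = 0.377 by edgeR), by 1.23 for nuclear transfer minus IVF (SE 0.52, adjusted p = 0.428) and by -1.08 for male minus female (SE 0.46, adjusted p = 0.694). In these 3 comparisons its sign was that of miR-29b, and in both comparisons of types it was opposite to that of miR-29a. miR-29d-3p had 21 counts in 10 libraries, and miR-29e was at 0 in all.

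Other miRNAs with related roles were taken as lists. Of 17 miRNAs that rise with differentiation in other mammals (let-7, miR-26 and miR-30 members), all 17 were tested and edgeR called 0 in any comparison of types. In IVF minus in vivo DESeq2 called 1 higher and limma voom 2 lower. Their median for nuclear transfer minus in vivo was 0.13, beside 0.15 over all entries. In male minus female within nuclear transfer 5 of the 17 were lower in males, beside 5.42% of all entries (let-7e, let-7b, miR-30d, let-7a-5p and miR-30f), with a list median of -1.24 beside -0.03 over all entries. All 5 calls were lost with RLE size factors and with library totals without TMM, where the median was -0.85 and -1.19, and also without miR-2887 and miR-2904 (-1.19) and with their share as a covariate (-0.71). let-7b has the same counts as miR-3596 in every library, and the pair cannot be told apart. miR-26a and miR-26c, both among the 17, had 162721 and 81356 counts and nearly equal differences. Each was at 0.1307 for nuclear transfer minus in vivo, and whether they share reads was not tested. Of 5 miRNAs known in human or mouse to lower DNA methyltransferases (miR-148a, miR-148b, miR-152, miR-185, miR-101) edgeR called 0 in any contrast and DESeq2 1, higher in males within nuclear transfer, with a median of 0.43 for nuclear transfer minus in vivo. Of the 10 matrix-linked miRNAs (miR-21, miR-133, miR-192, miR-199 and miR-214 forms) 7 were tested and 0 were called, with a median of 0.09.

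Lists for other cell types were set beside the members. The blood list (miR-451, miR-144, miR-486, miR-223, miR-142 and miR-150) summed to 235 to 8360 CPM in nuclear transfer libraries, 256 to 9030 CPM in IVF libraries and 254 to 4537 CPM in in vivo libraries, with no list member at 0 throughout. Its 6 tested members were all above 0 for nuclear transfer minus in vivo, with a median of 1.29 and 0 called, beside 55.4% of all entries above 0. All 6 stayed above 0 by DESeq2 (median 1.33), by limma voom (1.31), without TMM (1.03) and with the miR-2887 and miR-2904 share as a covariate (1.29). With the replicate block, whose numbers do not pair the libraries, 2 of the 6 were above 0 and the median was -0.25. For IVF minus in vivo 6 of 6 were above 0, with a median of 1.06 and 0 called, beside 51.7% of all entries above 0, and the median was 0.18 with the block. The epithelial list (miR-200, miR-141, miR-429 and miR-205) had 5 of 6 members tested. Its median was -0.06 for nuclear transfer minus in vivo and -0.48 for IVF minus in vivo, with 0 called in either. The neural list had 4 members tested. Of these 1 (miR-1298) was lower in nuclear transfer than in in vivo vesicles, beside 0.417% of all entries. Lower than in IVF vesicles were 3 (miR-1298, miR-124a and miR-124b), beside 1.25% of all entries. They were the only entries edgeR called in either contrast, and DESeq2 and limma voom called none. All were sparse: miR-124a had 250 counts and miR-124b 125, each in 10 libraries, and miR-1298 had 150 in 12. The counts of miR-124a were even in 10 of 10 libraries. Whether miR-124a and miR-124b hold the same reads was not tested, so they may not be separate calls. Of the muscle list 3 members were tested, of the liver list 1 (miR-122), and of the pluripotency list (miR-302, miR-367 and miR-371) 5, and edgeR called 0 of them in any contrast.

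In male minus female within nuclear transfer, where the differentiation list was lower, other lists differed too. The miR-2887 and miR-2904 share averaged 46.6% in nuclear transfer males (30.3 to 59.4%) and 24.6% in nuclear transfer females (5.17 to 44.5%). Sex and this share were thus unbalanced together in this comparison, for miR-29b and for every list. In the epithelial list 0 of 5 tested members were above 0, beside 49.2% of all entries, with a median of -0.96. Of these miR-200c was lower in males, at -2.15 (SE 0.65, adjusted p = 0.0381 by edgeR), and that call was lost with RLE size factors, with library totals without TMM, without miR-2887 and miR-2904, with their share as a covariate and with the replicate block. The list summed to 6840 to 32317 CPM in nuclear transfer males and 16375 to 103127 CPM in nuclear transfer females. In the pluripotency list 5 of 5 tested members were above 0, with a median of 3.07. edgeR called 0 of the 5, DESeq2 4 and limma voom 1, and the median was 0.79 with the miR-2887 and miR-2904 share as a covariate. It summed to 423 to 7784 CPM in nuclear transfer males and 141 to 1088 CPM in nuclear transfer females. miR-122 was at 1.90 (adjusted p = 0.175 by edgeR) and was called by DESeq2, at 2.33. No member of these lists was at 0 throughout. The part of these cells in the miR-29 levels was not tested.

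The levels of miR-29a and miR-29b were also set against the miR-2887 and miR-2904 share and the library total, 4 relations in all, and none passed after adjustment. For miR-29a against the share, r was -0.40 (permutation p = 0.0342, adjusted p = 0.137) and rho -0.32 (permutation p = 0.101, adjusted p = 0.405), with -0.65 within nuclear transfer, -0.33 within IVF and -0.01 within in vivo. For miR-29b against the share r was -0.05 (permutation p = 0.797, adjusted p = 0.797) and rho 0.0014 (adjusted p = 0.995), with -0.45, 0.36 and -0.29 within nuclear transfer, IVF and in vivo. Against the library total r was -0.11 for miR-29a (permutation p = 0.565, adjusted p = 0.753) and rho -0.0088 (adjusted p = 0.995), with 0.49, -0.31 and -0.54 within the types in that order. For miR-29b it was 0.19 (permutation p = 0.326, adjusted p = 0.651) and rho 0.23 (adjusted p = 0.469), with -0.19, 0.77 and 0.34 within the types. Without the 2 libraries farthest from the median of the measure, r against the share was -0.48 for miR-29a and -0.01 for miR-29b, and against the total -0.33 for miR-29a and 0.21 for miR-29b. With miR-2887 and miR-2904 left out of the total and no TMM, miR-29a averaged 1319 ± 553 CPM in nuclear transfer (SD, n = 12), 2001 ± 637 CPM in IVF (SD, n = 10) and 2571 ± 1633 CPM in in vivo libraries (SD, n = 6). The order of the types was the same as with all entries.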

How the data were processed

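Small RNA of vesicles was counted per miRNA in 28 libraries. The authors deposited raw whole counts for the vesicles and estimated counts per gene for endometrium, not normalized. Per the submitters' processing notes, the build was ARS-UCD 1.2 and tools included cutadapt, STAR, featureCounts, Bowtie and DESeq2; no source used here gives their roles or versions. Per the labels' protocols, inserts were cut to a short size.

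Counts were tested in R 4.3.3 with edgeR 4.0.16 (TMM, filterByExpr with minimum count 10 and minimum total 15, quasi-likelihood F test, two-sided, Benjamini-Hochberg over all 240 tested entries, threshold 0.05), in 1 fit of 6 group means. A type contrast is the mean of its male and female differences. SEs come from the fold and its F statistic; log2 CPM used a prior count of 2. The test was tried on simulated data. Alternatives were DESeq2 1.42.0, limma voom 3.58.1, other scalings and filters, a replicate block and leaving out libraries. Replicate numbers do not pair the libraries: the median correlation in deviations from group means was 0.0074 over 53 same-number pairs and 0.0021 over others. Of the 53 pairs, 20 had a correlation over 0.1. Neighbours were named by highest r over entries with a mean log2 CPM of at least 5.

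Each vesicle library has its own animal number in the labels, and p-values measure the spread between these libraries. Planned endometrial target tests are void: of 50 target genes 0 are named in that table. Members and lists were chosen with earlier results of these data known.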

Additional observations from a re-analysis of the deposited data

Results flagged for a closer look

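Levels of the 3 members were checked in the 3 type-by-sex groups of 4 to 10 libraries, 9 checks in all. In 2 of them the highest library lay far from the others by Dixon's test, which chance alone gives in about 1 in 20 groups. miR-29b in nuclear transfer female replicate 2 was 1063 CPM, with the next nuclear transfer female library at 182 CPM. miR-29a in IVF female replicate 3 was 1851 CPM, with the next IVF female library at 1192 CPM.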

How the results depend on the processing

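Over 613 alternative values of the members' tests, 76 of them of the interaction, 0 passed an adjusted p of 0.05; the lowest was 0.0914, for miR-29b within nuclear transfer by DESeq2. Of the 537 differences, 505 kept their direction and 32 turned. Turned values outside single-library omissions: miR-29b, IVF minus in vivo, 0.43 by limma voom and 0.35 without libraries under 50000 counts. miR-29a, male minus female within nuclear transfer, 0.0463 by DESeq2, 0.0462 with RLE and 0.0187 with the share covariate; within IVF 0.0232 by DESeq2, 0.0278 with RLE and 0.22 without TMM; within in vivo 0.0829 by voom, 0.47 without libraries under 50000 counts and 0.0885 with the replicate block. miR-29b within in vivo, 0.0425 without the filter, 1.15 without libraries under 50000 counts and 0.0756 with the block. Leaving out 1 library gave, for miR-29b IVF minus in vivo, -0.77 to 0.33; for miR-29a male minus female -0.42 to 0.0559, within nuclear transfer -0.42 to 0.10, within IVF -0.75 to 0.24 and within in vivo -0.57 to 0.49; for miR-29b within in vivo -0.79 to 0.65.

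Calls over all entries for nuclear transfer minus in vivo (1 by edgeR) were 0 by DESeq2, 0 by voom, 6 without TMM, 6 without the filter, 0 without libraries under 50000 counts, 6 with the replicate block and 0 to 5 on leaving out 1 library. For IVF minus in vivo they were 13 by DESeq2, 22 by voom, 6 without the filter and 0 to 21. For nuclear transfer minus IVF (3) they were 0 by DESeq2, 0 by voom, 5 without the filter, 0 without miR-2887 and miR-2904, 0 with their share as covariate, 0 without libraries under 50000 counts and 0 to 4. For male minus female within nuclear transfer (20) they were 59, 46, 3 with RLE, 0 without TMM, 3 without miR-2887 and miR-2904, 0 with the covariate, 32 without libraries under 50000 counts, 40 in nuclear transfer libraries alone and 0 to 36. The cause was not tested. Totals without TMM moved the median of all entries by -0.34 (nuclear transfer minus in vivo) and -0.46 (IVF minus in vivo), and RLE by 0.35 for male minus female within nuclear transfer.

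With the replicate block, miR-29a, nuclear transfer minus in vivo, was -0.94 (adjusted p = 0.371) and miR-29b 0.72 (adjusted p = 0.835); the labels' numbers do not pair the libraries, and 4 of 28 correlated best with their own number. Correlations that changed side or sign were those of miR-29a and miR-29b (0.68 within nuclear transfer, -0.10 within IVF, -0.0485 without the 2 farthest), miR-29a and miR-29c (0.39 without the 2 farthest, -0.0324 within IVF, 0.55 within in vivo) and miR-29b and miR-29c (0.60 within nuclear transfer). By deviations from group means 1 of the 3 neighbours of miR-29b was shared. The depth, 39263 counts at the lowest, limits miR-29c and the zeros of miR-29b.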
